A study of Mus musculus with 32 samples.

Results

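H3K27me3 was compared between mouse progenitors expressing CSF3R T618I and progenitors carrying an empty vector, as peak lists from CUT&Tag, an assay in which a tethered transposase cuts DNA beside the antibody's target. The libraries were chosen by their labels: 3 CSF3R libraries (replicates 1 to 3) and 2 control libraries (replicates 1 and 2), which are 5 of 10 H3K27me3 libraries and of 32 samples in the series. CSF3R cells carried a non-targeting guide RNA and the vector pMICH-CSF3R-T618I. Control cells carried the same kind of guide and pMICH-Empty. Both came from HoxB8 cells, bone-marrow progenitors immortalised by an estrogen-dependent HoxB8. They were kept in 0.6 µM estrogen and stem cell factor, and estrogen was removed for 48 h before the assay. The other H3K27me3 libraries carried an Asxl1 guide without the receptor (Asxl1 libraries, n = 3) or with it (double libraries, n = 2). The study set mutant Asxl1 and an activated CSF3R side by side in myeloid progenitors, and the question here was what the receptor alone did to H3K27me3 domains. The labels do not give the element that drives the receptor's expression, and they do not say whether replicates were separate cultures, so spreads and p-values describe these libraries only.

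H3K27me3 is laid down by Polycomb repressive complex 2, whose catalytic subunit is Ezh2 or Ezh1. The complex starts at CpG-rich promoters of silent genes and spreads outward, because its Eed subunit binds the mark it makes. H2AK119ub, the product of Polycomb repressive complex 1, marks many of the same places, while H3K4me1 lies at enhancers and around active promoters. CSF3R is the receptor for G-CSF, the cytokine that drives neutrophil production, and T618I is a mutation of chronic neutrophilic leukaemia that keeps the receptor signalling without its ligand.

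The marks fitted the myeloid label. All 8 neutrophil markers examined had an H3K4me1 peak in their 10 kb gene window in each of the 3 CSF3R libraries and both control libraries. Of these 8, Mmp8 and Mmp9 also had an H3K27me3 peak in all 5 libraries. None of 6 B- and T-cell markers had an H3K4me1 peak in any of these libraries. In that set 4 markers (Pax5, Ebf1, Tcf7 and Gata3) lay under H3K27me3. In all 3 CSF3R libraries, 3 of 6 monocyte and dendritic markers had an H3K4me1 peak. So did 1 of 5 erythroid and megakaryocyte and 3 of 5 mast, basophil and eosinophil markers. In both controls the counts were 2, 2 and 3. Of 9 immature myeloid markers, 5 had an H3K4me1 peak in all 5 libraries. Flt3, Hoxa9 and Meis1 had none, and had an H3K27me3 peak in the 3 CSF3R libraries. In both controls 2 of the 9 had an H3K27me3 peak, among them Hoxa9 with 100% of its window covered. H3K4me1 at the neutrophil markers moved with genotype: it covered a mean of 56.8, 49.2 and 60.6% of their windows in CSF3R libraries, against 39.2% in both controls. At the immature myeloid markers it was also higher, with 21.7, 19.8 and 23.9% against 13.3 and 17.3%. At the monocyte, erythroid and mast cell sets the groups overlapped. All H3K4me1 peaks covered 41.1, 37.0 and 47.2 Mb in CSF3R libraries and 37.9 and 36.6 Mb in controls. Cells at different stages in different proportions and more of a mark per cell cannot be told apart in such bulk data. The part of these H3K4me1 differences in the H3K27me3 results was not tested. The window of Csf3r itself, whose endogenous mouse gene is not the vector's, held no H3K27me3 peak in any of the 5 libraries. The files list peak positions only, with no height, score or read count, so sequencing depth is unknown.

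H3K27me3 covered more of the genome in CSF3R cells, in more and wider peaks. The CSF3R libraries held 15279, 18980 and 22610 peaks, against 10165 and 14280 in the control libraries. Peaks covered 31.3, 34.1 and 42.2 Mb in CSF3R libraries and 15.9 and 22.7 Mb in control libraries, or 35.9 ± 5.62 Mb and 19.3 ± 4.82 Mb (SD, n = 3 and n = 2). The groups did not overlap, and the gap between control replicate 2 and CSF3R replicate 1 was only a little larger than the gap between the 2 controls. The ratio of the groups was 1.87 (log2 0.91, exact 2-sided permutation p = 0.1). With 3 libraries against 2 there are 10 arrangements, so 0.1 is the smallest p this design allows and no single value can pass 0.05.

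Mean peak width separated the groups with less spread among controls. It was 2051, 1797 and 1865 bp in CSF3R libraries and 1563 and 1590 bp in control libraries, a ratio of 1.21 (log2 0.27, exact permutation p = 0.1). Long peaks differed more. There were 1669, 1678 and 2118 peaks over 5 kb in CSF3R libraries, which held 46.3, 41.5 and 44.3% of their covered length. Control libraries had 643 and 957 such peaks, holding 31.9 and 34.8% of the length. Peaks over 20 kb numbered 62, 42 and 78 in CSF3R libraries against 7 and 20 in controls. Median width was 900, 750 and 750 bp in CSF3R libraries and 700 bp in both controls, so the typical peak was closer between groups than the mean (exact permutation p = 0.3). Asxl1 replicate 2, without the receptor, covered 53.0 Mb with a mean width of 1168 bp, above the 780 and 972 bp of the other Asxl1 libraries and below both controls, and what the length of a list adds to peak width was not tested.

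**Figure D1:**
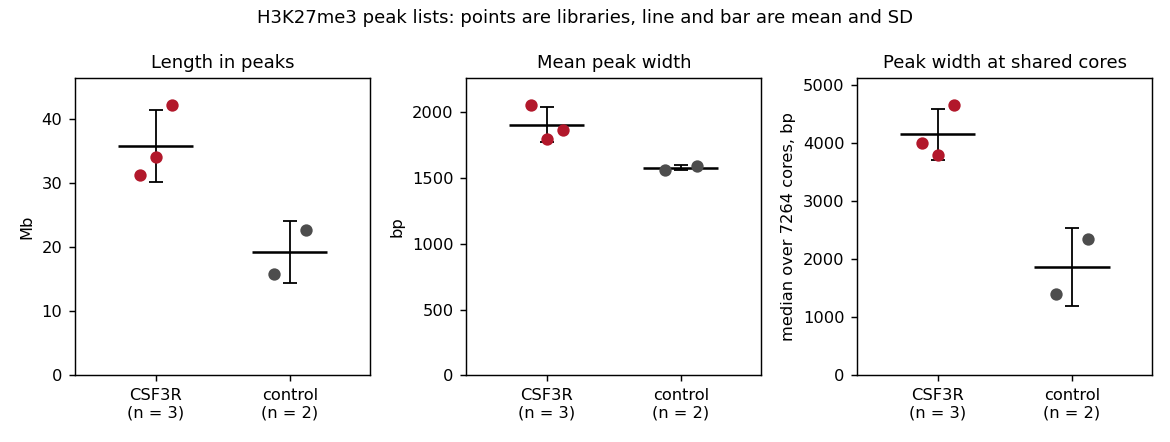
Length in H3K27me3 peaks (Mb), mean peak width (bp) and the median width (bp) of the peak holding each shared core, for CSF3R (n = 3) and control (n = 2) libraries; points are libraries, lines and bars the mean and SD. CSF3R points lie above control points in each panel, and the controls differ from each other least in mean width (1563 and 1590 bp).

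Domains present in all 5 libraries were wider in CSF3R cells. A shared core was a stretch of at least 200 bp in peaks of all 5 libraries, and there were 7264 cores over 12.8 Mb. The peak holding a core had a median width of 4000, 3800 and 4650 bp in CSF3R libraries and 1400 and 2350 bp in control libraries. These are means of 4150 ± 444 bp and 1875 ± 672 bp, a ratio of 2.28 (log2 1.19, exact permutation p = 0.1). Of the cores, 93.2% lay in a wider peak in the CSF3R mean than in the control mean, 44.2% by at least 2-fold, and 36 cores were at least 2-fold narrower. Several cores can lie in 1 peak, so the peaks of all 5 libraries were also merged into stretches that count each peak once. The 5973 stretches that held a peak of every library are called loci, and a locus need not hold a core. The covered length of a library at a locus sums all its peaks there. Median covered length per locus was 3100, 3150 and 3700 bp in CSF3R libraries against 1500 and 2200 bp in controls. All 3 CSF3R libraries exceeded both controls at 3436 loci, and at 44 loci all were below them, 57.5% and 0.737% of loci. Asxl1 replicate 2, with its long list and no receptor, held 97.9% of the cores in peaks with a median of 3500 bp.

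Part of this widening was the fusion of neighbouring peaks. Of the peaks of control replicate 1, 29.0, 26.9 and 32.9% shared a single peak with at least 1 other control peak in CSF3R replicates 1, 2 and 3. For control replicate 2 the shares were 18.5, 17.8 and 23.9%. In the other direction, 0.411 to 2.49% of CSF3R peaks were fused in a control peak.

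Of the length outside control peaks, the larger part bordered domains that controls already had. In CSF3R replicates 1, 2 and 3, 65.3, 61.2 and 52.9% of covered length lay inside peaks of either control. A further 23.8, 24.03 and 28.6% lay outside them but in a peak that overlapped one, and 10.95, 14.8 and 18.5% lay in peaks that touched no control peak. Against control replicate 1 alone, control replicate 2 gives a scale for these amounts. Of CSF3R replicates 1, 2 and 3, 46.8, 42.9 and 36% lay inside peaks of control replicate 1, 33.4, 32 and 34.3% bordered them and 19.9, 25.1 and 29.7% was separate. Of control replicate 2, 60.5% lay inside, 24.1% bordered and 15.4% was separate. All 3 CSF3R libraries thus had more bordering and more separate length than the other control, 10.5, 10.9 and 14.5 Mb of bordering length against 5.47 Mb. Against control replicate 2 the CSF3R libraries had 8.4, 9.02 and 12.9 Mb. CSF3R replicate 3 had 8.86 Mb bordering peaks of CSF3R replicate 1 and 8.26 Mb bordering those of CSF3R replicate 2. The other CSF3R pairs gave 2.78 to 5.47 Mb. Separate length was 13.3% of CSF3R replicate 3 against CSF3R replicate 1, and 12.6% of CSF3R replicate 1 against control replicate 2. Differences between CSF3R replicates thus reached the low end of those between genotypes. Little control length lay outside all CSF3R libraries: 97.6% of control replicate 1 and 94.2% of control replicate 2 lay inside peaks of at least 1. The CSF3R lists together covered 48.9 Mb and those of both controls 24.9 Mb, so loss and gain were measured unequally. Single CSF3R libraries 1, 2 and 3 covered 92.3, 92.0 and 95.4% of the length of control replicate 1. Of control replicate 2 they covered 83.7, 85.6 and 90.9%.

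Narrow domains gained most in proportion and wide ones most in base pairs. At 1767 loci with a mean of under 1 kb in controls, the median length was 1050, 1200 and 1450 bp in CSF3R libraries and 350 and 600 bp in controls. At 227 loci over 10 kb in controls it was 17200, 17100 and 18450 bp in CSF3R libraries and 13400 and 15200 bp in controls. The median log2 ratio was 1.18 in the narrowest class and 0.27 in the widest, and the median addition was 700 and 3117 bp. The classes were set on the controls' own lengths. In all 5 classes every CSF3R library had a higher median than both controls.

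**Figure D2:**
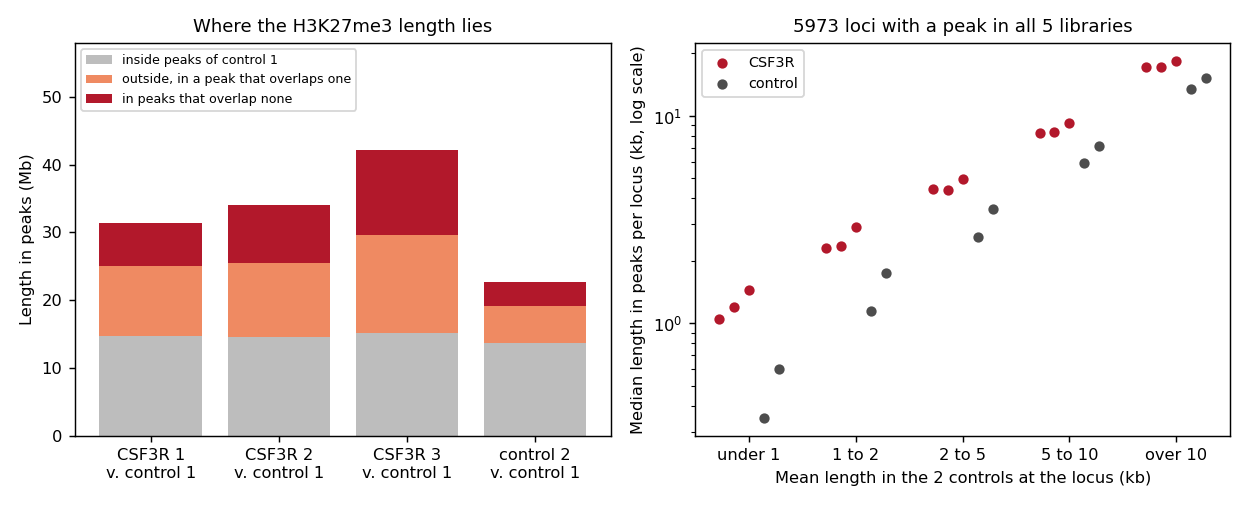
Left, H3K27me3 length (Mb) inside peaks of control replicate 1, bordering them or separate, for each CSF3R library and for control replicate 2; bordering length is 10.5, 10.9 and 14.5 Mb in CSF3R libraries and 5.47 Mb in control replicate 2. Right, median length per locus (kb, log scale) in each library, by the locus's mean length in controls; the 3 CSF3R points lie above both control points in all 5 classes, by a smaller ratio at wide loci.

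The largest gains in width were ranked as ratios, which favours peaks that were narrow in controls. A core at the start of Chpf, a chondroitin-polymerising factor, and of its neighbour Tmem198 lay in peaks of 10350, 45750 and 14800 bp in CSF3R libraries and of 250 bp in both controls. A core in the body of Onecut3, a homeobox gene, lay in peaks of 26850, 29950 and 30150 bp in CSF3R libraries and of 400 and 450 bp in controls. Neither gene's groups overlapped. A core 3950 bp from the start of Wnt9a, a secreted Wnt ligand, lay in peaks of 12200, 12000 and 12000 bp in CSF3R libraries and of 200 and 250 bp in controls. The core nearest Lhx5, a LIM homeobox gene of the brain, was in peaks of 18250, 1850 and 18650 bp in CSF3R libraries against 250 and 200 bp in controls, so 1 CSF3R library was far below the other 2 there, though above both controls. Controls already had other peaks near these cores. In controls peaks covered 45.5 and 70% of the 10 kb window of Chpf and 62.5 and 66.5% of that of Wnt9a. They covered 87.5 and 100% at Lhx5 and 100% in both at Onecut3, though those windows did not reach the core. The cores that narrowed most included one nearest Abtb2, with 1500, 300 and 500 bp in CSF3R libraries and 4300 and 5900 bp in controls, and one nearest Irs1, an insulin receptor substrate, with 900, 1000 and 1000 bp against 200 and 9550 bp. At Irs1 the controls themselves fell on both sides of the CSF3R values. Such widths can jump where a gap opens or closes: the longest peak of every CSF3R library was a region of 89.7, 87.3 and 90.3 kb on chromosome 8, which peaks also covered over 72.3 and 85.7 kb in controls, but as 14 and 3 separate peaks.

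Around gene starts the domains extended further on both sides. Of 17491 protein-coding genes with a start placed on mm10, 2207, 2611 and 2769 starts lay in a peak in CSF3R libraries and 1528 and 1981 in controls, and 1397 did in all 5. At those 1397 starts the peak reached a median of 2000, 1850 and 2150 bp upstream in CSF3R libraries and 1100 and 1450 bp in controls. Downstream, into the gene, it reached 2700, 2550 and 2900 bp in CSF3R libraries and 1700 and 2050 bp in controls. The means differed by 725 bp upstream and 842 bp downstream (exact permutation p = 0.1 on each side). At 2.5 kb into the gene, 56.8, 53.4 and 61.3% of these starts were still under the peak or another one in CSF3R libraries, against 33.6 and 44.3% in controls.

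**Figure D3:**
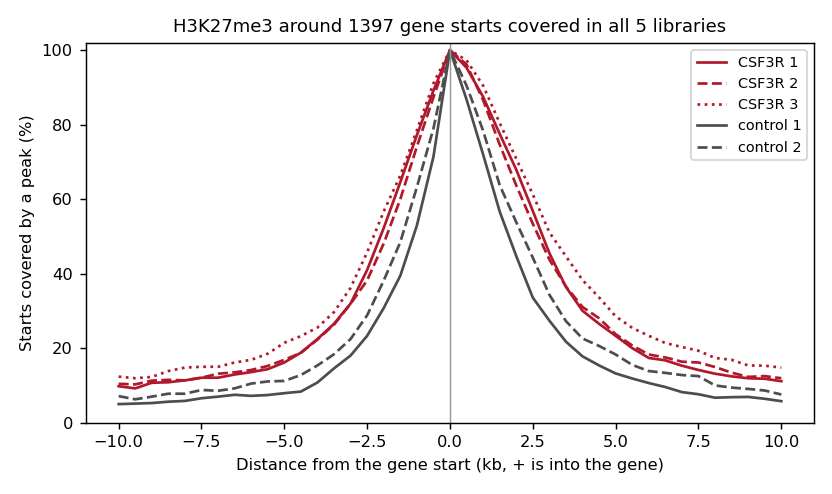
Share (%) of 1397 gene starts, all under a peak in all 5 libraries, that were covered at each distance (kb) from the start, per library. CSF3R lines run above control lines on both sides, for example 41.0, 38.2 and 45.7% against 23.3 and 28.8% at 2.5 kb upstream.

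Stretches that only CSF3R libraries shared were many and short, and those that only controls shared were few. A new domain was a stretch of at least 500 bp in peaks of all 3 CSF3R libraries with no control peak within 1 kb. There were 791, or 10.0% of 7873 stretches that all 3 CSF3R libraries shared, covering 0.922 Mb with a median of 950 bp. The same rule turned round gave 6 lost domains, 0.114% of 5261 stretches shared by both controls. A rule over 3 libraries against 2 treats the groups unequally, and the counts of new and lost domains moved with single libraries. They were 968 and 187 without control replicate 1, 1904 and 30 without control replicate 2, and 1761 and 8 without CSF3R replicate 1. Of the new domains, 80 held the start of a protein-coding gene, or the gene end used where no start was placed. Another 208 lay within 5 kb of such a position, 240 lay elsewhere in a gene body and 263 between genes. Holding such a position was thus the case for 10.1% of new domains and for 24.7% of shared cores. The 7264 cores covered 12.8 Mb and were not matched to the new domains for length, and longer stretches can hold more positions.

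Of the 5 longest new domains, 4 lay over gene starts. The longest, 4950 bp at chr10:84438201-84443150, held the start of Nuak1, an AMPK-related kinase. The next held the starts of Nol4l (4900 bp, chr2:153527051-153531950), of Dpf3, a subunit of the BAF chromatin-remodelling complex (4550 bp, chr12:83484301-83488850), and of Ptprf, a receptor-type tyrosine phosphatase (4450 bp, chr4:118288751-118293200). The fifth, of 4400 bp at chr16:91864851-91869250, lay in the body of Itsn1, a scaffold protein of endocytosis. A new domain of 3500 bp at chr8:120734351-120737850 held the start of Irf8, a transcription factor of monocyte and dendritic cell fate.

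In all, 267 gene starts lay in a peak in all 3 CSF3R libraries and in neither control, 1.53% of the 17491, and 4 starts, 0.0229%, in both controls and no CSF3R library. The 267 included 4 of 82 placed starts of developmental regulators (Six4, Nkx6-2, Hand2 and Neurod2) and 3 of 24 of myeloid transcription factors (Irf8, Klf4 and Vdr). They also included 2 of 21 of stem and progenitor genes (Erg and Hmga2) and 2 of 24 of lymphoid genes (Ebf1 and Tcf7). Hoxd3 was 1 of 22 Hox starts, and Fzd9, a Wnt receptor, 1 of 45 Wnt, Hedgehog, BMP and FGF starts. None of 38 placed starts of Polycomb and Asxl/Bap1 complex genes, of 34 JAK-STAT and cytokine signalling genes or of 21 late neutrophil genes was among them. At 1.53% of all starts, 0 does not set lists of these sizes apart. No start of the Polycomb genes or of the late neutrophil genes was under a peak in any of the 5 libraries, as held for 83.3% of all starts. A newly covered start could lie in a window that controls already covered in part. In controls, peaks covered 72.5 and 67.5% of the 10 kb window at Hand2, 46.5 and 58% at Erg and 37.5 and 53.5% at Neurod2. At Hoxd3 they covered 47.5 and 64.5%, against 59, 42 and 78.5% in CSF3R libraries. The other starts named here had less in controls, down to none at Irf8.

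Sequences of 250 bases before the start are shown for starts newly covered in CSF3R cells (Irf8, Nuak1, Hmga2 and Ebf1), for Gata2, covered in all 5 libraries, and for Cebpa, covered in none, to show how base composition varied among them. They are from RefSeq on GRCm38.p6, 5′ to 3′ on the gene's strand, with each CG dinucleotide, the site of CpG methylation and a feature of Polycomb-bound promoters, in capitals.
Irf8, chr8:120736108-120736357, plus strand: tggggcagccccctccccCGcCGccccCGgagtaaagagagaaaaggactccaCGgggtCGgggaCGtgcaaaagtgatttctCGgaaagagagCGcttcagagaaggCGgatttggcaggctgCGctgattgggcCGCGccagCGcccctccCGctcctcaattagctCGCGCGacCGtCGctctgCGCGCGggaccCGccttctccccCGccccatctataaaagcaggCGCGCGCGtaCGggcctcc
Nuak1, chr10:84440669-84440918, minus strand: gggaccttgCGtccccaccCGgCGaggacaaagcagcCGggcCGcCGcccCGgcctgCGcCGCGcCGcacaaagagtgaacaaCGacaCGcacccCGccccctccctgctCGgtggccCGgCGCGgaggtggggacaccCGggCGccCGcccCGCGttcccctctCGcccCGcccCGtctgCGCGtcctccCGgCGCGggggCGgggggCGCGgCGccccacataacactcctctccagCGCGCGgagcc
Hmga2, chr10:120476470-120476719, minus strand: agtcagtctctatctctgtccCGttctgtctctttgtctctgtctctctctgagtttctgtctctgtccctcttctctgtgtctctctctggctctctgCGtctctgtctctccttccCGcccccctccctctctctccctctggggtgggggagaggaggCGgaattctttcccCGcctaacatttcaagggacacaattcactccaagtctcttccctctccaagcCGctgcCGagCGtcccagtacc
Ebf1, chr11:44617850-44618099, plus strand: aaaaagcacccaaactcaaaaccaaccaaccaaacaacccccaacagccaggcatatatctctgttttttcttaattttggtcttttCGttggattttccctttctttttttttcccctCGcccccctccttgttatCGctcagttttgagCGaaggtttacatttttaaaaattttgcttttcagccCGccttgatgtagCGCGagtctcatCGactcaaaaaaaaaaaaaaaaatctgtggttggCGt
Gata2, chr6:88193641-88193890, plus strand: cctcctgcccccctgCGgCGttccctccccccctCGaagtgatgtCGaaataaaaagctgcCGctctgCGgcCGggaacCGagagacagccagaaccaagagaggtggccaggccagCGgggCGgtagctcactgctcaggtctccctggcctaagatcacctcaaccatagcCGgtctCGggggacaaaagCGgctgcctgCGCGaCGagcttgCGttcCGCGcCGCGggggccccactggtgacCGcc
Cebpa, chr7:35119043-35119292, plus strand: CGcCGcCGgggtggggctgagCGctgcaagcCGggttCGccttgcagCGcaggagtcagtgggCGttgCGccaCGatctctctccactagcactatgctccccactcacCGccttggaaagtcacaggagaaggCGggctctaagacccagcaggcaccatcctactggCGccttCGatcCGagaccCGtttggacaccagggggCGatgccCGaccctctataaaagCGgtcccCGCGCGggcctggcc

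The newly covered starts spanned dense and sparse CG. In these 250 bases Nuak1 had 38 CG dinucleotides and Irf8 29, against 8 in Hmga2 and 9 in Ebf1, while Gata2 and Cebpa had 22 each. Over 300-base promoters (250 bases before and 50 after the start), the 267 newly covered starts had a median of 18 CG, the 1397 covered in all 5 libraries 21, and the 14572 covered in none 11. Median GC content was 62, 64.3 and 54.7% in the same order. The motif TTCNNNGAA, the core of STAT binding sites and its own reverse complement, occurred in 17 of the 267 promoters (6.37%) and in 7.78% of all 17491. Irf8 held 2 matches in the bases shown. A match describes letters only.

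Gene windows were then tested one by one. For 21883 protein-coding genes, the part of a 10 kb window around the start that lay in peaks was computed, or around 1 gene end where the strand was not given, and 3460 windows covered by at least 20% in at least 2 of the 10 H3K27me3 libraries were fitted with limma. Of these, 93 rose in CSF3R cells at a Benjamini-Hochberg adjusted p under 0.05, 2.69% of windows tested, and none fell (0%). At an unadjusted p under 0.05 there were 833 windows, 831 of them higher. A window could pass the 20% filter through the CSF3R libraries alone. Irf8, Nkx6-2, Mdfi, Cdh1 and Ptprf did so, with no other library at 20%. For such windows the filter and the test used the same high values. The windows that passed the filter moved together: the median difference over all 3460 was 15.6 percentage points of window, and 95.0% of differences were positive. All 3 CSF3R libraries exceeded both controls at 64.2% of them, against 0.462% below. With no filter, over 7122 windows, the median difference was smaller, 0.0575 of a window, and 76.5% of differences were positive. With the filter kept and the log2 covered length of each library in the fit, the median difference was 6.08 points and 430 windows were higher and 19 lower. With whole peaks that touched an IgG peak removed, 65 were higher and 17 lower. The 93 calls rested on each control and on CSF3R replicates 2 and 3, since leaving out any of these 4 libraries left no call (limma, 298 to 599 windows at an unadjusted p under 0.05). Leaving out Asxl1 replicate 2, which is in the fit for its spread only, gave 1083 higher and 4 lower, leaving out Asxl1 replicate 1 gave 243, without Asxl1 replicate 3 it was 7, and without either double library 18.

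At the called windows the control cells held little H3K27me3. The mean over the 93 windows was 52.6, 54 and 60.04% of the window in CSF3R libraries and 5.72 and 11.2% in controls, the same values that made the calls. Neither control had a peak at 18 of the windows, and both had one at 54. The largest increase was at Adgrg5, an adhesion G-protein-coupled receptor, with 74.5, 74 and 85% of the window in peaks in CSF3R libraries and 4 and 2% in controls, a difference of 74.8 ± 8.74 points (SE, limma adjusted p = 0.0126). Cds1, an enzyme of phosphatidylinositol synthesis, had 80.5, 75 and 67% in CSF3R libraries and 0 and 12% in controls (68.2 ± 9.97 points, adjusted p = 0.015). Fam222a had 81% in each CSF3R library and 5.5 and 20.5% in controls (68.0 ± 8.61 points, adjusted p = 0.0126). The groups did not overlap at any of the 3 genes, and the gap between them was several times the spread within each.

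The other large increases were at genes of varied function. Cdh1, which encodes the adhesion protein E-cadherin, had 73.5, 62 and 76% in CSF3R libraries and 3 and 15% in controls (61.5 ± 7.77 points, limma adjusted p = 0.0126). Its window also held H3K4me1 peaks over 24.5, 24 and 26% in CSF3R libraries and none in controls. Mdfi, an inhibitor of myogenic factors, had 53, 66.5 and 72.5% in CSF3R libraries and 0 and 4% in controls. Tead1, the transcription factor at the end of the Hippo pathway, had 63.5, 55.5 and 82% in CSF3R libraries and 0 and 18.5% in controls. Slc26a11, Sowaha and Efhd1 completed the set, with differences of 64.5, 63.3 and 59.3 points and adjusted p of 0.0248, 0.0484 and 0.0474. Slc26a11 shares its window with Sgsh, so the 2 genes cannot be told apart.

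**Figure D4:**
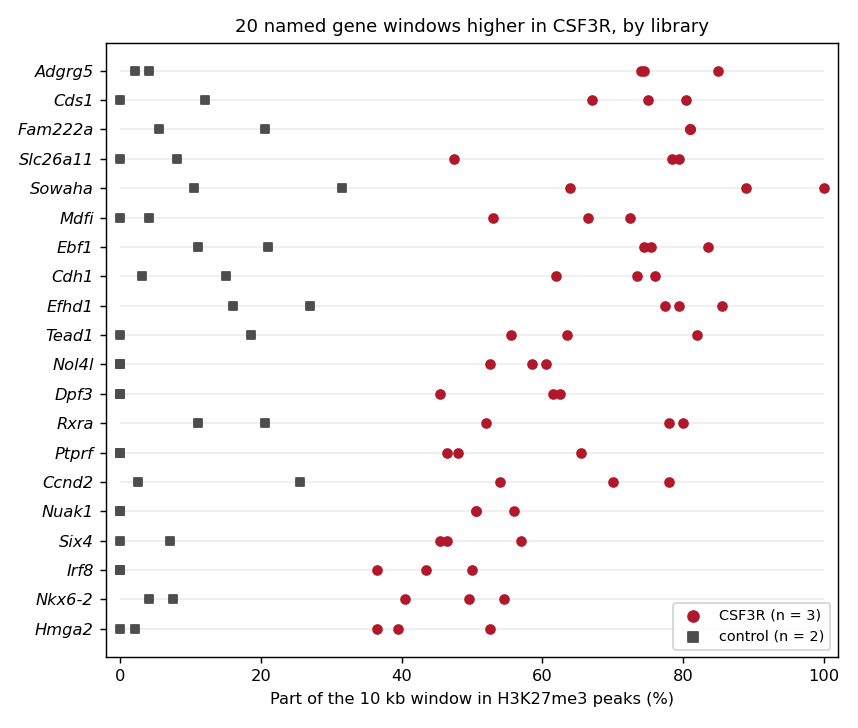
Part (%) of the 10 kb window in H3K27me3 peaks for the 20 named genes that rose, per library (CSF3R circles, control squares), ordered by the difference. No CSF3R library overlaps a control at any of these genes, and at Irf8, Nuak1, Nol4l, Dpf3 and Ptprf both controls are at 0.

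Among 31 myeloid transcription factors, 15 windows were tested, 2 rose and none fell, beside 2.69% of all windows, and the list's median difference was 17.5 points against 15.6 for all. Irf8 had 36.5, 43.5 and 50% of its window in peaks in CSF3R libraries and none in either control (43.3 ± 7.25 points, limma adjusted p = 0.0242). Only the CSF3R libraries brought this window past the filter. The 3 CSF3R peaks at Irf8 were 3650, 4350 and 5000 bp wide and all spanned the start. Rxra, a nuclear receptor that pairs with retinoic acid and vitamin D receptors, had 52, 78 and 80% in CSF3R libraries and 11 and 20.5% in controls (54.2 ± 9.37 points, adjusted p = 0.0242). Klf4, a factor of monocyte differentiation, had 45.5, 44.5 and 42.5% in CSF3R libraries and 16 and 19% in controls, a difference of 26.7 points that did not pass (adjusted p = 0.0695). Cebpa, Cebpe and Gfi1, the factors that drive granulocyte differentiation, had no H3K27me3 peak in their windows in any of the 5 libraries.

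Of 29 stem and progenitor genes, 8 were tested and 1 rose, beside 2.69% of all windows. Hmga2, a chromatin-architecture protein of fetal stem cells, had 52.5, 36.5 and 39.5% in CSF3R libraries and 0 and 2% in controls (41.8 ± 8.62 points, limma adjusted p = 0.0354). Gata2, needed for blood stem cells and mast cells, was already under a domain in controls, with 62, 71 and 75% in CSF3R libraries and 35.5 and 41.5% in controls (30.8 points, adjusted p = 0.0632). The peak over its start was 7050, 7900 and 10800 bp wide in CSF3R libraries and 1450 and 4000 bp in controls. Meis1, the partner of Hoxa9 in leukaemia, lay below the filter, with 7.5, 6.5 and 14% in CSF3R libraries and 0% in both controls.

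**Figure D5:**
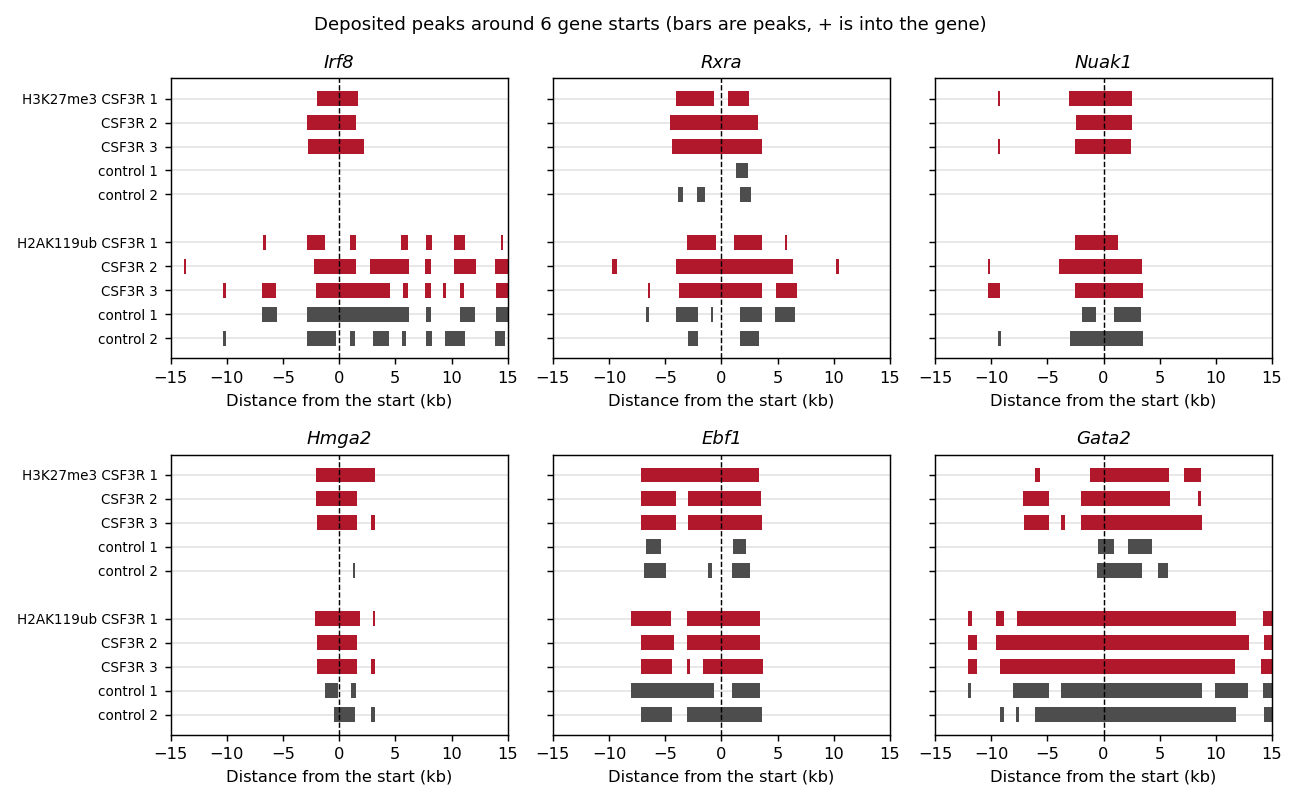
Deposited H3K27me3 and H2AK119ub peaks within 15 kb of 6 gene starts (distance in kb along the gene), one row per library, CSF3R above control. At Irf8, Nuak1 and Hmga2 the H3K27me3 peak over the start is in the 3 CSF3R rows alone, while H2AK119ub peaks are in both groups; at Gata2 all 5 rows have an H3K27me3 peak over the start and those of CSF3R are wider.

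Lymphoid genes (12 tested) and cell cycle genes (3 tested) gave 1 call each, beside 2.69% of all windows, too few to set the lists apart. Ebf1, the factor that commits cells to the B lineage, had 83.5, 74.5 and 75.5% in CSF3R libraries and 11 and 21% in controls (61.8 ± 11.1 points, limma adjusted p = 0.0248), 1 of 12 lymphoid genes tested. Tcf7 (36.1 points, adjusted p = 0.0707) and Tbx21 (34.1 points, adjusted p = 0.112), factors of T cells, did not pass. Of 17 cell cycle genes 3 were tested. Ccnd2, the G1 cyclin D2, had 54, 70 and 78% in CSF3R libraries and 2.5 and 25.5% in controls (53.3 ± 11.1 points, adjusted p = 0.0369). Cdkn1c, which encodes the inhibitor p57, had 82, 100 and 100% in CSF3R libraries and 5 and 25.5% in controls, a larger difference of 78.8 points with a larger error (SE 19.5, adjusted p = 0.059). Cdkn2a, the classical Polycomb-repressed inhibitor, had 19.5, 15 and 14% in CSF3R libraries and 14.5 and 13% in controls.

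Developmental regulators and Hox genes were mostly under domains in controls already, and their counts of calls were near the 2.69% of all windows. Of 122 developmental regulators tested, 2 rose: Six4 (45.5, 57 and 46.5% in CSF3R libraries against 0 and 7% in controls, limma adjusted p = 0.0248) and Nkx6-2 (49.5, 40.5 and 54.5% against 7.5 and 4%, adjusted p = 0.0242), both homeobox genes. The list's median difference was 10.6 points, and its tested windows averaged 81.8, 78.9 and 82.5% in CSF3R libraries and 67.0 and 72.3% in controls. Of 35 Hox cluster genes none passed, and 8 had an unadjusted p under 0.05, a share close to that of all windows (833 of 3460). Their median difference was 22.8 points. Hoxb8, whose conditional copy immortalised these cells, had 86.5, 86 and 87% at its endogenous window in CSF3R libraries and 63 and 60% in controls (25 points, adjusted p = 0.199). Hoxa9 had 100, 74 and 88.5% in CSF3R libraries and 100% in both controls, one of the few differences below 0 (-12.5 points, adjusted p = 0.583).

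Signalling and lineage lists gave no limma call, which at 2.69% of all windows (833 of 3460 at an unadjusted p under 0.05) does not set lists of these sizes apart. None of 55 Wnt, Hedgehog, BMP and FGF genes passed (7 at an unadjusted p under 0.05), nor of 10 JAK-STAT and cytokine genes (3), 6 Polycomb and Asxl/Bap1 genes (3), 6 erythroid and megakaryocyte genes (2), 3 late neutrophil genes (0) or 1 mast cell gene (1). The growth factor Fgf11 came closest, with 49.5, 50 and 52% in CSF3R libraries and 9 and 21.5% in controls (adjusted p = 0.0535). Socs2, an inhibitor of cytokine signalling that STAT5 induces, had 16, 31 and 32% in CSF3R libraries and 0% in both controls (26.3 points, adjusted p = 0.114). Phf19, an accessory subunit of Polycomb repressive complex 2, had 30, 36 and 36.5% in CSF3R libraries and 9% in both controls (25.2 points, adjusted p = 0.0738). Kdm6b, which removes H3K27 methylation, had 16.5, 21 and 23.5% in CSF3R libraries and 0% in both controls (20.3 points, adjusted p = 0.116). Ezh1, the alternative catalytic subunit of that complex, and Pcgf3, Cbx6 and Phc1 of Polycomb repressive complex 1 also had a peak in their windows in all 3 CSF3R libraries and in neither control, but below the filter. Primary granule, monocyte and dendritic, and ribosomal protein genes had no window that reached the filter. Of 11 primary granule genes with a window, all 11 were without a peak in all 5 libraries, as were Myc and Socs3.

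Lower windows were few and did not pass in the fit over 10 libraries. Sash1, a signalling scaffold, had 0, 6 and 8% in CSF3R libraries and 29.5 and 26% in controls (-23.1 ± 7.31 points, limma adjusted p = 0.1). Foxd4, a forkhead factor, had 23, 12.5 and 38% in CSF3R libraries and 43 and 65% in controls (adjusted p = 0.119). Frmd6, a protein of the Hippo pathway, had 5.5, 5 and 10% in CSF3R libraries and 26 and 24% in controls (adjusted p = 0.213), and its start lay in the longest lost domain (1800 bp, chr12:70824501-70826300). A fit to the 5 libraries alone called 942 windows higher and 3 lower, with Sash1 and Frmd6 among the lower (adjusted p = 0.0237 and 0.0265).

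Over the whole genome, 7315 bins of 10 kb were tested, and 138 rose in CSF3R cells (limma adjusted p under 0.05, 1.89%) while none fell (0%; 1666 bins had an unadjusted p under 0.05, 1663 of them higher). The bins were chosen by the same filter as the windows, and their median difference was 15.2 points, with 94.5% of differences positive. With no filter, over 40199 bins, the median difference was 0 and 47.5% of differences were positive. Of the called bins, 67 held a gene start, or the gene end used where no start was placed, and 43 lay more than 10 kb from any of these positions. The 4 largest differences were in such bins, which can still lie in a gene body. The bin at chr15:82950001-82960000 had 86, 89.5 and 100% in peaks in CSF3R libraries and 0 and 7.5% in controls (88.1 ± 8.46 points, adjusted p = 0.00225). The bin at chr6:88130001-88140000 had 78.5, 86.5 and 88.5% in CSF3R libraries and 0 and 7% in controls (81.0 ± 7.07 points, adjusted p = 0.00225). Its nearest gene was Rpn1, and it lay 53.9 kb before the start of Gata2, a distance that was looked up after the value was seen. Without control replicate 1 or control replicate 2 no bin passed (560 and 1056 at an unadjusted p under 0.05), and without CSF3R replicates 1, 2 or 3 there were 82, 5 and 5. Without Asxl1 replicate 2 there were 2123 higher and 5 lower bins, without Asxl1 replicate 3 10, and without either double library 20. With IgG-touching peaks removed 82 bins were higher and 16 lower.

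Many of the places with new H3K27me3 already carried H2AK119ub. Of the 791 new domains, 244 (30.8%) touched an H2AK119ub peak in both control libraries of that mark and 282 (35.7%) in all 3 CSF3R libraries, against 51.2% of shared cores in both controls. New domains and cores were not matched for length. H2AK119ub covered 34.2, 43.3 and 40.3% of the length of new domains in CSF3R cells and 30.1 and 28.2% in controls, a difference of 10.1 points (exact permutation p = 0.2). The CSF3R values were all higher, but the H2AK119ub libraries also covered 18.8, 28.7 and 28.2 Mb in CSF3R cells and 21.2 and 19.9 Mb in controls. At the Irf8 window H2AK119ub covered 21, 59.5 and 66% in CSF3R libraries and 79 and 43.5% in controls, so the groups overlapped, whereas at Dpf3 it covered 41.5, 35 and 29.5% in CSF3R libraries and 8 and 2% in controls. At Adgrg5 it was sparse in both, with 7.5, 9 and 2% in CSF3R libraries and 0% in controls.

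H3K4me1 covered little of the new domains in both genotypes, though more than of the shared cores. It covered 0.624, 0.770 and 1.05% of their length in CSF3R cells and 1.03 and 1.19% in controls (difference -0.30 points, exact permutation p = 0.3). A merged IgG list, the background of the assay, covered 2.29% of it. H3K4me1 touched 6 of the 791 new domains in all 3 CSF3R libraries and 17 (2.15%) in both controls, against 0.344% of shared cores in both controls. Of the length of shared cores it covered 0.102, 0.238 and 0.311% in CSF3R cells and 0.125 and 0.105% in controls.

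With the Asxl1 guide present, the new domains were covered over 33.3 and 21.3% of their length in double libraries and 0.651, 38.1 and 5.41% in Asxl1 libraries (difference 12.6 points, exact 2-sided permutation p = 0.5). The value of 38.1% was from Asxl1 replicate 2, whose peaks covered 53.0 Mb. Relative to each library's covered length, both double libraries exceeded all Asxl1 libraries (exact permutation p = 0.1, the smallest these 5 libraries allow). Irf8, Rxra and Nkx6-2 had no peak in their windows in either double library, while Nuak1 had 63.5 and 36% and Hmga2 36.5 and 34.5%. No window passed a limma test of whether the receptor's effect differed with the guide (425 at an unadjusted p under 0.05, of which 2 had the larger effect with the guide). That count depended on the setting. With covered length as covariate the effect was larger and smaller with the guide at 7 and 87 windows. The counts were 3 and 43 with no filter, 8 and 73 in 2 kb windows, and 28 and 204 by any overlap. Over whole gene bodies they were 0 and 4. With IgG-touching peaks removed the direction was the other way, at 6 and 0.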

How the data were processed

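The files deposited by the authors are peak lists with chromosome, start and end, a unit other than counts or signal. Per the submitters' processing notes, reads were aligned with Bowtie2 2.4.1 to mm10 and deepTools 3.5 was used. Peak caller, threshold and read normalization were not given in the sources used here. Peaks were at least 200 bp and multiples of 50 bp wide, and at least 1050 bp apart, so stitching gaps of up to 1 kb changed nothing. Depth is unknown.

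Gene positions and promoters came from RefSeq on GRCm38.p6. Starts could be placed for 17491 genes, and for 4392 the gene end with more coverage over all 30 libraries was used. The covered part of each window went into limma 3.58.1 (R 4.3.3) over the 10 H3K27me3 libraries, 1 mean for each of 4 groups, so that all groups share 1 estimate of spread. In simulated data with 200 windows changed, the gene-window fit recovered 59.5% of shifts of 20 points and 100% of shifts of 40 points. It also made 4 and 8 false calls. All simulated libraries shared 1 spread, taken from the CSF3R libraries, so the unequal Asxl1 libraries did not enter it. The recovery therefore does not carry over to the real fit. There Cdkn1c (78.8 points, limma adjusted p = 0.059) and Neurod2 (44 points, limma adjusted p = 0.0632) did not pass. Single values per library were compared by exact 2-sided permutation. Python 3.11.15, numpy 2.4.6 and pandas 2.3.3 computed the overlaps, and figures used matplotlib 3.10.9.

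The libraries, the gene lists and the tests were chosen with earlier results of these data known. Named genes were the 10 largest increases past the threshold (without Gm and Rik symbols or overlapping windows), the lowest p among decreases when none passed, up to 3 genes per list by p, 15 genes taken in every case, and the genes at the 5 longest new and lost domains and the cores with the largest change of width. Not all are described. Alternatives were other windows and bins, no filter, an arcsine transform, covered length as covariate, only the 5 libraries, a replicate block, removal of short or IgG-touching peaks, and each library left out in turn.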

Additional observations from a re-analysis of the deposited data

How the results depend on the processing

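Covered length, mean peak width, width at shared cores and the cover of new domains by other marks kept their direction under every alternative run, with p of 0.1 or more throughout. The log2 ratio of covered length ran between 0.65 and 1.16, and that of width at shared cores between 0.78 and 1.67, the lowest for cores of at least 1 kb and the highest without control replicate 2. New domains numbered 478 with no control peak within 5 kb, 389 for stretches of at least 1 kb, 2223 when 2 of 3 CSF3R libraries sufficed, 647 with 181 lost when IgG-touching peaks were removed, and 892 to 1904 with 1 library left out. Gene windows called numbered 314 with no filter, 945 with only the 5 libraries, 449 with the covered-length covariate, 202 in 2 kb windows, 24 over whole gene bodies, 205 by any overlap and 0 with the replicate block (623 at an unadjusted p under 0.05). In 10 kb bins the counts were 464 with no filter, 1394 with only the 5 libraries, 643 with the covariate, 322 in 5 kb bins, 11 in 20 kb bins and 0 with the replicate block (1194 at an unadjusted p under 0.05). With 1 of the 10 libraries left out, calls ranged from 0 to 1087 gene windows and from 0 to 2128 bins. With 1 of only the 5 left out, a set of fits chosen after seeing the data, there were 0 gene windows and 0 bins without control replicate 1, 742 and 767 without control replicate 2, 772 and 1617 without CSF3R replicate 1, 275 and 582 without CSF3R replicate 2, and 0 and 0 without CSF3R replicate 3 (limma, 957 and 1093 gene windows and 1617 and 1922 bins at an unadjusted p under 0.05 in the fits with no call). A library alone in its group was assumed to vary like the others. Of the 20 named windows that rose, all 20 passed with only the 5 libraries and with the covariate, none passed in every one of 27 alternatives, and none reversed. Also chosen after seeing the data were covered length per locus, genes with a placed start (87 calls, 70 shared with the 93), and Asxl1 replicate 2 left out with the covariate (126 gene windows, 128 bins). Whether equal replicate numbers mark a pairing is unknown. Deviations of same-numbered libraries from their group means correlated at 0.081 and 0.045 over 2 shared numbers. With 2 controls those deviations mirror each other, so these values cannot tell a shared batch from none. The cause of each change was not tested. Unknown depth and 2 controls of unequal length limit all of these comparisons.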

Other observations

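Stretches that bordered a control peak and lay in all 3 CSF3R libraries but in neither control numbered 2959, over 3.34 Mb. H2AK119ub covered 21.3, 29.7 and 27.5% of their length in CSF3R cells and 22.5 and 19.8% in controls, so the groups overlapped there. H3K27me3 covered 26.5 and 17.1% of the same length in double libraries and 1.04, 59.5 and 8.03% in Asxl1 libraries, the highest value being from Asxl1 replicate 2. The stretches were chosen by their H3K27me3 in CSF3R and control libraries, so only the other marks and genotypes are given for them.

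With the Asxl1 guide alone, genes with more H3K27me3 in CSF3R libraries differed among themselves. Klf4 had 45.5, 44.5 and 42.5% of its window in peaks in CSF3R libraries, against 16 and 19% in controls, and 26.5, 38.5 and 31.5% in Asxl1 libraries. Rxra had no peak in any double or Asxl1 library. At Mmp8, a neutrophil collagenase, H3K4me1 covered 62, 40.5 and 55% of the window in CSF3R libraries and 8.5 and 12.5% in controls, while H3K27me3 covered 16.5, 2.5 and 6% against 2.5 and 4.5% (limma adjusted p = 0.803 for H3K27me3).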
